A study of Danio rerio with 16 samples.

Results

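The comparison set 4 samples of zebrafish embryos exposed to the retinoic acid receptor antagonist AGN193109 at 10 µM against 4 samples exposed to it at 1 µM, which are 8 of the 16 arrays of the series. The samples were taken by their titles. The question was which genes that depend on retinoic acid (RA) still differed between the doses. It was also asked which already lay at a chosen floor of intensity at 1 µM. RA-dependent genes were taken as those whose mean over both doses differed from the solvent controls, which left 33 of 7118 genes tested. Each sample was RNA of whole, dechorionated wild-type embryos from AB/WIK hybrid parents, collected at 11 hours post fertilization (hpf), on 1 Affymetrix zebrafish array.

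Both antagonist groups were exposed from 5.25 hpf. The control group held 4 samples kept from the same time in the solvent alone, dimethyl sulfoxide (DMSO) at 2%. A DMSO level was recorded here for this group only, so that of the antagonist groups is not given. A further 4 samples were exposed to all-trans RA at 0.33 µM from 6.5 hpf. They show here the direction in which added RA moves a gene, and they differ from the controls in the start of exposure as well. The RA samples also entered the fit, the choice of probe sets to test and the choice of probe set for each gene. Genes that RA moved were chosen by them when the floor was examined. The titles spell the antagonist AGN193019 and the series design AGN193109, and the second spelling is used. Doses are in µM in the titles and the design but in mM in the protocol, and µM is used. The labels call the 4 samples of a group independent but do not say how many embryos went into each.

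RA is made from vitamin A by retinaldehyde dehydrogenases, is degraded by Cyp26 enzymes, and acts through RA receptors that bind DNA as partners of retinoid X receptors. In the early vertebrate embryo it patterns the hindbrain and the trunk, where it turns on anterior hox genes and their cofactors and restrains genes of more anterior or pharyngeal fields. A receptor antagonist occupies the receptors without activating them, so that genes held up by the embryo's own RA fall and genes held down by it rise.

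Levels are given as log2 of the deposited intensity, so that a difference of 1 is 2-fold, and differences are levels at 10 µM minus levels at 1 µM, with the standard error (SE) of the limma fit, unless stated otherwise. A probe set was called at a Benjamini-Hochberg adjusted p under 0.05 over all 11843 probe sets tested. The floor was set at log2 4, an intensity of 16, and a gene counted as at the floor in a group when all 4 arrays lay at or below it. Deposited intensities went down to 2, so the floor is a chosen limit. In whole embryos, fewer cells of a type and less RNA per cell cannot be told apart.

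The arrays had median intensities of 72.8 to 78.3, and 14 of 15 markers of embryonic tissues lay above the floor on all 8 antagonist arrays; the exception was gata1a, a red blood cell gene. Replicates 1 and 4 of the 1 µM group stood apart. The 13 pairs of antagonist arrays that include either of them correlated at 0.965 to 0.983 across probe sets, and the other 15 pairs at 0.983 to 0.995. The mean level of 77 genes of the respiratory chain and ATP synthase, a list chosen after its values were seen, was 7.94 and 8.05 on these 2 arrays, 9.10 and 9.20 on the other 1 µM arrays, 8.87 to 9.29 at 10 µM and 8.81 to 9.18 in DMSO. The RA arrays stood at 8.24, 9.27, 8.31 and 8.91. The values therefore split the 1 µM group, with 2 of its arrays below every other array of the series, and the RA group was split as well, at a higher level. Of these 77 genes, 73 had the higher mean at 10 µM (median difference 0.58), of which limma called 0 and 17 had an unadjusted p under 0.05. Over all probe sets tested, 6085 of 11843 had the higher mean at 10 µM, and 4.20% were higher at that threshold. Without both arrays 24 of the 77 genes had the higher mean (median -0.05), with 0 called and 0 at that unadjusted threshold. Over all probe sets 6702 of 11843 were then higher, 148 of them at that threshold. Dose differences without these arrays are given below for each RA-dependent gene whose interval left out 0 with or without them, and for some others.

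**Figure D1:**
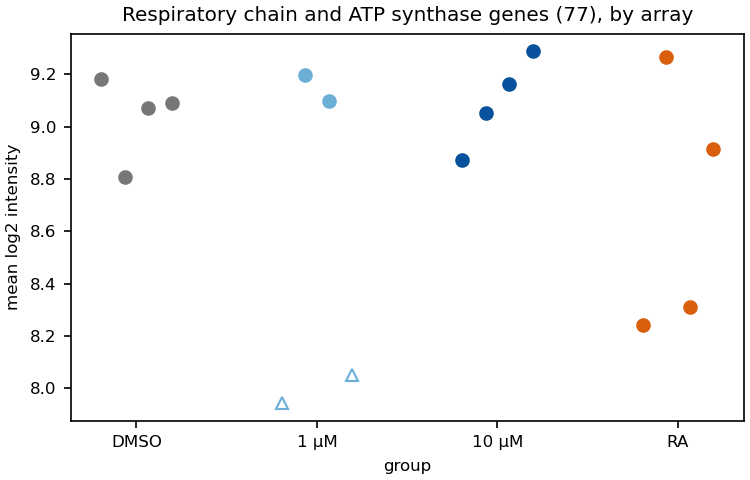
Mean log2 intensity of 77 respiratory chain and ATP synthase genes on each of the 16 arrays, by group; each point is 1 array and open triangles are 1 µM replicates 1 and 4. The triangles lie at 7.94 and 8.05, while the other 6 antagonist arrays lie between 8.87 and 9.29.

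Of the RA-dependent genes, 24 were lower and 9 were higher under the antagonist than in DMSO (0.296% and 0.110% of all probe sets tested were called lower and higher, respectively, which is the contrast that chose the members). RA moved 26 of the 33 the opposite way in its own call, 22 of the lower genes upwards and 4 of the higher genes downwards; over all probe sets 3.18% were called higher and 2.57% lower under RA. Leaving out 1 array brought these counts down to as few as 14 lower, 2 higher and 14 opposite, all 3 without DMSO replicate 1. Without any single array of DMSO or the antagonist, 14 of the 24 lower genes and 1 of the 9 higher genes, tbx1, were called. The term RA-dependent rests on the antagonist alone. Under RA, neurog1, tbx15, zic6 and tfap2b moved the opposite way without a call. By the probe sets that stood for them, tmem160 differed by 0.03 under RA (adjusted p = 0.964) and hapln1a by 0.20 (adjusted p = 0.806). RA raised cyp26b1, as the antagonist did. The lower group held the hox genes hoxb1a, hoxa3a, hoxa4a, hoxb4a and hoxd4a, the hox cofactor genes meis2a, meis2b and meis3, the receptor gene rxrga and the retinaldehyde reductase gene dhrs3a. The higher group held hoxa2b and hoxd11a, the pharyngeal gene tbx1, hey2, tbx15, zic6, tfap2b, hapln1a and the RA-degrading enzyme gene cyp26b1. Other probe sets of hapln1a differed from DMSO by 0.84, 0.38 and 0.67 and were not called (adjusted p = 0.122, 0.969 and 0.260). The second probe set of tmem160, a lower gene, differed by -0.15 (adjusted p = 0.969), and by 0.68 under RA (adjusted p = 0.0446). Further probe sets of hoxd4a, hoxa3a and cyp26b1 were called in the direction of the first. Since the doses were compared with the same 4 DMSO arrays, their differences from DMSO are given side by side and were not correlated.

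No RA-dependent gene was called between the doses. limma called 0 of 33, against 1 of 11843 probe sets (0.00844%), and that probe set carries no gene symbol. At an unadjusted p under 0.05, 8 of the 24 lower genes were lower at 10 µM and none was higher, while 4.72% of all probe sets were lower and 4.20% higher. The 8 were meis3, hoxd4a, wnt11, meis2a, meis2b, nr2f6b, nrip1b and spsb4a. Of the 9 higher genes, hoxa2b was higher at 10 µM at that threshold, and zic6 and tbx15 were lower.

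The means of 22 of the 24 lower genes were lower at 10 µM than at 1 µM, with a median difference of -0.22. Over all probe sets tested, 5758 of 11843 were lower at 10 µM, with a median of 0.01. Without 1 µM replicates 1 and 4 the count was 17 of 24 (median -0.16), with 4 at an unadjusted p under 0.05, while over all probe sets 5141 of 11843 were then lower (median 0.03), and 1.26% were lower at that threshold. All members were measured on the same 8 arrays and were chosen with earlier results known, so these counts carry no test. The 1 µM group was also the most variable, with a median standard deviation (SD) of 0.254 over probe sets against 0.175 at 10 µM, 0.196 in DMSO and 0.226 in RA. Over the members alone the medians were closer, at 0.251, 0.228, 0.220 and 0.222 in the same order. The mean that chose the members and the difference between the doses are independent only where the spreads are equal.

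For 29 of the 33 genes, the whole 95% confidence interval of the dose difference lay inside 2-fold in either direction, as it did for 93.9% of all probe sets. The 4 genes with a wider interval were hoxd4a, meis3, meis2a and ppm1h, all with the lower mean at 10 µM. Between the 4 arrays of each dose there was no overlap for 3 of the 24 lower genes, wnt11, meis2a and nrip1b, all lower at 10 µM, and for 1 of the 9 higher genes, hoxa2b, which was higher at 10 µM. Over all probe sets the shares without overlap were 2.14% lower and 2.82% higher. These same 4 genes also stepped without overlap from DMSO to 1 µM to 10 µM, a pattern held by 0.0507% of all probe sets as a fall and by 0.0169% as a rise; the first step uses the contrast that chose the members.

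**Figure D2:**
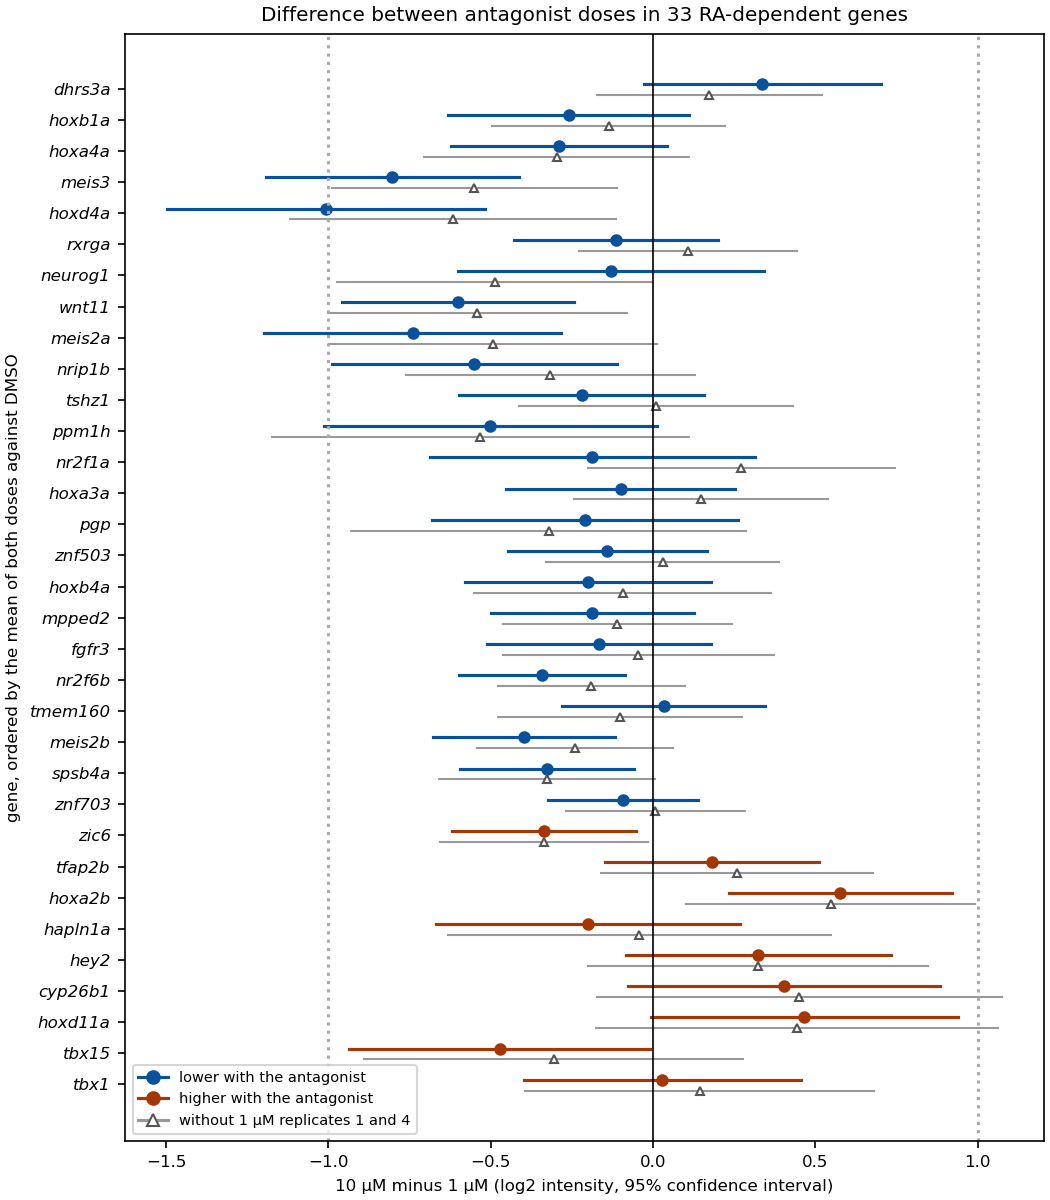
Difference of log2 intensity between 10 µM and 1 µM for the 33 RA-dependent genes; points are limma estimates, lines are 95% confidence intervals, and grey triangles are the estimates without 1 µM replicates 1 and 4. Most intervals cross 0, and hoxd4a, meis3 and meis2a lie farthest to the left.

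Against DMSO, 22 of the 24 lower genes were called at 10 µM and 10 at 1 µM (0.312% and 0.118% of all probe sets were called lower). The 10 were dhrs3a, hoxb1a, hoxa4a, hoxa3a, meis3, rxrga, neurog1, wnt11, tshz1 and znf503. Of the 9 higher genes, 6 were called at 10 µM and 3 at 1 µM (0.0844% and 0.0253% of all probe sets were called higher). The median difference of the lower genes from DMSO was -1.20 at 10 µM and -0.94 at 1 µM. These counts rest on the arrays that chose the members, and a gene called at 1 dose and not at the other is not thereby shown to differ between the doses.

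The enzyme genes come first. The product of dhrs3a reduces retinaldehyde to retinol and so lowers the supply for RA synthesis. Its level in DMSO was 6.70, 6.75, 6.90 and 7.04. At 1 µM it was 3.30, 3.10, 3.31 and 2.46, and at 10 µM it was 3.26, 3.59, 3.38 and 3.29. All 8 antagonist arrays lay under the floor and far from the controls, and the doses overlapped. The gene was at least 7.20-fold lower than in DMSO at either dose, a bound against the floor. RA raised it to 10.71, 10.93, 10.46 and 10.92. The dose difference was 0.34 ± 0.17 (SE; 95% interval -0.03 to 0.70; adjusted p = 0.560), a difference between values under the floor. Of the 33 RA-dependent genes, dhrs3a alone was at the floor at 1 µM, and it was also the one gene at the floor at 10 µM. This rests on the limit of log2 4. At a limit of log2 3 no RA-dependent gene was at the floor in either group. The highest dhrs3a arrays were 3.31 at 1 µM and 3.59 at 10 µM.

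The Cyp26 enzymes degrade RA. Levels of cyp26a1, which RA took to between 13.71 and 14.25, were 10.36, 10.72, 10.30 and 10.61 in DMSO. They were 10.59, 9.94, 10.59 and 9.13 at 1 µM and 9.63, 9.62, 8.99 and 9.90 at 10 µM. Every 10 µM array lay below every DMSO array, while 1 µM arrays lay inside the DMSO range (10.59 and 10.59) or below it (9.94 and 9.13). cyp26a1 was not among the 33 genes: its difference from DMSO was -0.97 at 10 µM (adjusted p = 0.314) and -0.44 at 1 µM (adjusted p = 0.749). The dose difference was -0.53 ± 0.27 (95% interval -1.10 to 0.04; adjusted p = 0.560), and -0.73 without 1 µM replicates 1 and 4 (95% interval -1.25 to -0.21).

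cyp26b1 went the other way. Its level was 8.30, 8.67, 8.23 and 8.25 in DMSO, 9.27, 9.37, 8.80 and 9.10 at 1 µM and 9.55, 9.44, 10.01 and 9.15 at 10 µM. All antagonist arrays exceeded all controls and the doses overlapped, with a difference of 0.40 ± 0.23 (adjusted p = 0.566). The other 3 probe sets of the gene differed by 0.31, 0.30 and 0.36 in the same direction. RA raised cyp26b1 as well, by 0.92 (adjusted p = 0.0199), so that it was higher under both compounds. For aldh1a2, the main RA-synthesising enzyme of the early embryo, the dose difference was -0.14 (95% interval -0.75 to 0.46).

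**Figure D3:**
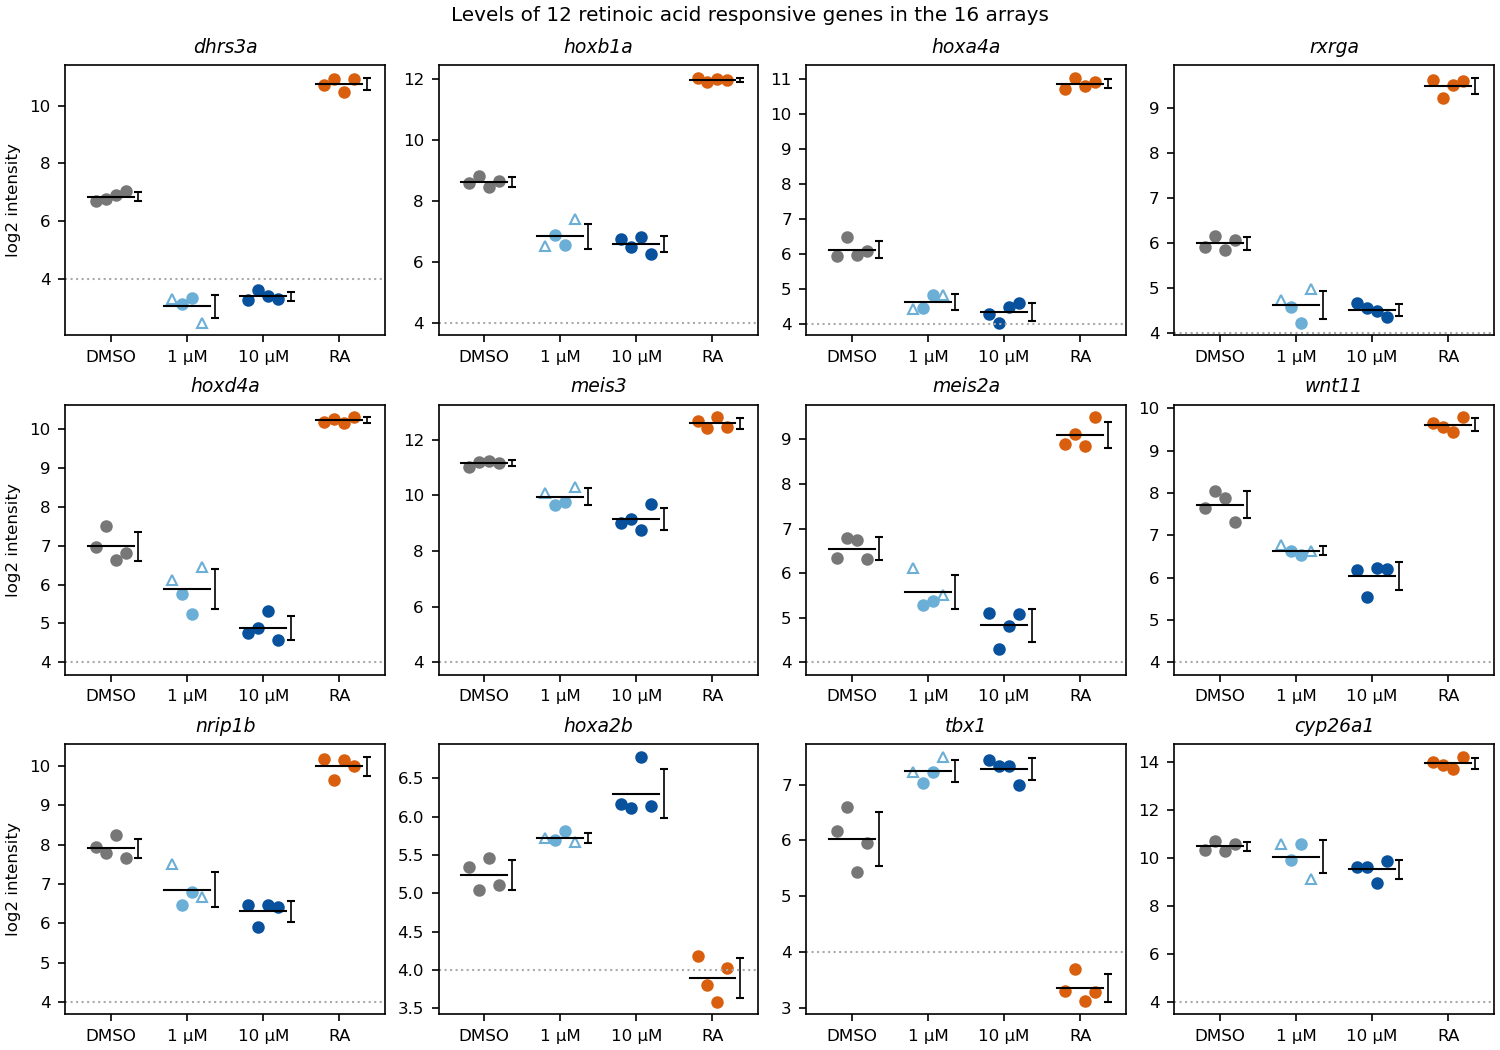
Log2 intensity of 12 genes on each array in DMSO, antagonist at 1 µM, antagonist at 10 µM and RA; each point is 1 array, open triangles are 1 µM replicates 1 and 4, bars are means, whiskers are 1 SD (n = 4), and the dotted line is the floor at log2 4. dhrs3a lies below the line at both doses, hoxb1a and hoxa4a overlap between the doses above it, and wnt11, meis2a and nrip1b step down without overlap.

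Among the receptors and cofactors, rxrga, which encodes a retinoid X receptor, was the 1 retinoid receptor gene of 7 tested that was called under the antagonist. Over all probe sets 0.296% were called lower and 0.110% higher in that contrast, which also chose the members. It stood at 5.91, 6.15, 5.85 and 6.06 in DMSO, at 4.72, 4.58, 4.22 and 4.97 at 1 µM and at 4.66, 4.54, 4.49 and 4.34 at 10 µM. Both doses lay below the controls and within the same range. It fell by 1.48 at 10 µM (adjusted p = 3.01e-05) and by 1.37 at 1 µM (adjusted p = 0.000210). The dose difference was -0.11 ± 0.15 (95% interval -0.43 to 0.20; adjusted p = 0.813), and 0.11 without 1 µM replicates 1 and 4.

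nrip1b encodes a corepressor that in mammals binds nuclear receptors in their ligand-bound state. Its level was 7.94, 7.79, 8.24 and 7.65 in DMSO, 7.50, 6.46, 6.79 and 6.68 at 1 µM and 6.46, 5.90, 6.46 and 6.41 at 10 µM. The doses did not overlap, by less than 0.01 between the nearest arrays. The dose difference was -0.55 ± 0.21 (95% interval -0.99 to -0.11; adjusted p = 0.554). Without 1 µM replicates 1 and 4 it was -0.32, with an interval of -0.76 to 0.13.

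nr2f6b and nr2f1a encode nuclear receptors of the COUP-TF family. nr2f6b stood at 9.72, 9.99, 9.94 and 9.84 in DMSO, 9.58, 9.29, 9.10 and 9.41 at 1 µM and 8.88, 9.02, 9.01 and 9.10 at 10 µM. Its dose difference was -0.34 ± 0.12 (95% interval -0.60 to -0.09; adjusted p = 0.554), and -0.19 without 1 µM replicates 1 and 4 (95% interval -0.48 to 0.10). For nr2f1a it was -0.19 (95% interval -0.69 to 0.31; adjusted p = 0.803), and 0.27 without those arrays (95% interval -0.20 to 0.74). The level of nr2f1a at 1 µM was widely spread, between 5.67 and 7.05.

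The hox genes of groups 1 to 5, which give hindbrain and anterior trunk segments their identity, included 5 of the lower genes, and of these hoxd4a had the largest dose difference. hoxb1a, a gene of the fourth hindbrain segment, stood at 8.58, 8.82, 8.46 and 8.66 in DMSO, 6.52, 6.87, 6.55 and 7.40 at 1 µM and 6.75, 6.49, 6.82 and 6.24 at 10 µM. The doses overlapped, 2 log2 units and more above the floor. hoxb1a fell by 2.05 ± 0.18 at 10 µM (adjusted p = 8.71e-06) and by 1.79 ± 0.18 at 1 µM (adjusted p = 9.42e-05). The dose difference was -0.26 ± 0.18 (95% interval -0.63 to 0.11; adjusted p = 0.619).

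hoxa4a stood at 5.94, 6.49, 5.97 and 6.07 in DMSO, 4.41, 4.43, 4.83 and 4.82 at 1 µM and 4.27, 4.02, 4.46 and 4.58 at 10 µM. Both doses lay within 1 unit of the floor and overlapped, with a difference of -0.29 ± 0.16 (95% interval -0.62 to 0.04; adjusted p = 0.560). For hoxa3a the levels were 5.11, 4.55, 4.68 and 5.11 at 1 µM and 4.78, 4.90, 4.69 and 4.68 at 10 µM, against 5.56 to 6.14 in DMSO. The difference was -0.10 ± 0.17 (95% interval -0.45 to 0.25; adjusted p = 0.862), and its second probe set differed by -0.01. The first differed by 0.15 without 1 µM replicates 1 and 4. For hoxb4a, which stood at 4.31, 4.47, 4.19 and 4.77 at 1 µM, the difference was -0.20 ± 0.18 (95% interval -0.58 to 0.18; adjusted p = 0.713). Together with dhrs3a and rxrga, hoxa4a and hoxb4a made up the 4 of 33 genes with every 1 µM array at or below log2 5.

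hoxd4a showed the largest mean dose difference of the 33 genes. It stood at 6.97, 7.51, 6.63 and 6.82 in DMSO, at 6.11, 5.75, 5.25 and 6.46 at 1 µM and at 4.77, 4.89, 5.31 and 4.57 at 10 µM. The highest 10 µM array exceeded the lowest 1 µM array, and otherwise the doses were apart. The dose difference was -1.01 ± 0.23 (95% interval -1.50 to -0.52), with an unadjusted p of 0.000467 and an adjusted p of 0.395. Without 1 µM replicates 1 and 4, the higher pair of that group, it was -0.62, with an interval of -1.12 to -0.11. hoxd4a fell by 2.1 at 10 µM (adjusted p = 0.000100), and its difference at 1 µM was -1.09 (adjusted p = 0.113).

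A second probe set of hoxd4a stood at 6.66, 6.92, 5.34 and 6.15 in DMSO, 4.53, 4.88, 4.04 and 5.30 at 1 µM and 3.94, 3.98, 4.02 and 3.39 at 10 µM. It stepped down without overlap, though by only 0.02 between the nearest 1 µM and 10 µM arrays, and its 10 µM values lay around the floor. Between the doses it differed by -0.85 ± 0.33 (95% interval -1.54 to -0.16; adjusted p = 0.554). hoxb5a and hoxb5b, which RA raised by 5.46 and 4.70, were not among the 33 genes, and their dose differences were -0.42 (95% interval -0.86 to 0.01) and -0.01 (95% interval -0.45 to 0.43). hoxb5a differed by -0.14 without 1 µM replicates 1 and 4 (95% interval -0.62 to 0.34).

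In hoxa2b, a gene of the anterior hindbrain and the second pharyngeal arch, the order was reversed. It stood at 5.35, 5.04, 5.45 and 5.11 in DMSO, 5.73, 5.69, 5.81 and 5.66 at 1 µM, 6.16, 6.11, 6.78 and 6.14 at 10 µM and 4.18, 3.80, 3.58 and 4.03 in RA. The 4 groups did not overlap, ascending from RA through DMSO and 1 µM to 10 µM. The doses differed by 0.58 ± 0.16 (95% interval 0.23 to 0.92, adjusted p = 0.554), and by 0.55 without 1 µM replicates 1 and 4 (95% interval 0.10 to 0.99). hoxa2b rose by 1.06 at 10 µM (adjusted p = 0.00333), and its difference at 1 µM was 0.48 (adjusted p = 0.745). For hoxd11a, a posterior hox gene, the difference between the doses was 0.47 (95% interval -0.01 to 0.94).

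The Meis proteins are homeodomain cofactors that bind DNA together with Hox and Pbx proteins. meis3 stood at 11.01, 11.20, 11.25 and 11.18 in DMSO, 10.10, 9.65, 9.75 and 10.31 at 1 µM and 9.01, 9.17, 8.74 and 9.68 at 10 µM. The 3 groups descended, and the doses overlapped by 0.03 through 10 µM replicate 4. Between the doses it differed by -0.80 ± 0.18 (95% interval -1.19 to -0.41), with an unadjusted p of 0.000449 and an adjusted p of 0.395. Without 1 µM replicates 1 and 4 it was -0.55, with an interval of -0.99 to -0.11. meis3 fell at both doses, by 2.01 (adjusted p = 1.17e-05) and by 1.2 (adjusted p = 0.00979).

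meis2a stood at 6.34, 6.80, 6.75 and 6.32 in DMSO, 6.12, 5.28, 5.37 and 5.51 at 1 µM and 5.11, 4.31, 4.81 and 5.08 at 10 µM. The groups stepped down without overlap. The doses differed by -0.74 ± 0.22 (95% interval -1.20 to -0.28; adjusted p = 0.554), and -0.49 without 1 µM replicates 1 and 4 (95% interval -1.0 to 0.01). For meis2b the levels were 9.07, 8.45, 8.70 and 8.70 at 1 µM and 8.37, 8.36, 8.47 and 8.14 at 10 µM, against 9.00 to 9.21 in DMSO. Its dose difference was -0.40 ± 0.13 (95% interval -0.68 to -0.12; adjusted p = 0.554), and -0.24 without 1 µM replicates 1 and 4 (95% interval -0.54 to 0.06). Another Meis gene, meis1b, was not among the RA-dependent genes and differed by -0.08 (95% interval -0.36 to 0.20).

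Of the 38 tested genes listed for hindbrain patterning and hox cofactors, 8 were called lower and 0 higher under the antagonist, 0 were called between the doses by limma (5 lower and 0 higher at 10 µM at an unadjusted p under 0.05), and 27 had the lower mean at 10 µM (median -0.07). Over all probe sets 0.296% and 0.110% were called lower and higher under the antagonist, 4.72% and 4.20% passed the unadjusted threshold between the doses, and 5758 of 11843 were lower at 10 µM. egr2b, which marks the third hindbrain segment and the fifth, differed by -0.06 (95% interval -0.44 to 0.32). Among the zinc finger genes of the lower RA-dependent set, tshz1 differed by -0.22 (95% interval -0.60 to 0.16), znf503 by -0.14 (95% interval -0.45 to 0.17) and znf703 by -0.09 (95% interval -0.32 to 0.14). Their intervals all included 0 and stayed inside 2-fold. The interval of zic6, a zinc finger gene of the higher set, left out 0 and is given below.

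wnt11 encodes a secreted Wnt ligand. Its level was 7.64, 8.05, 7.88 and 7.31 in DMSO, 6.77, 6.63, 6.54 and 6.63 at 1 µM and 6.18, 5.55, 6.22 and 6.20 at 10 µM. The 3 groups stepped down without overlap, and the 1 µM arrays lay close together, replicates 1 and 4 included. Between the doses it differed by -0.60 ± 0.17 (95% interval -0.96 to -0.24; adjusted p = 0.554), and -0.54 without those arrays (95% interval -1.0 to -0.08). wnt11 fell by 1.68 at 10 µM (adjusted p = 3.01e-05) and by 1.08 at 1 µM (adjusted p = 0.0115).

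neurog1, a proneural transcription factor gene, stood at 8.02, 8.93, 8.13 and 7.94 in DMSO, 6.32, 7.39, 7.15 and 6.79 at 1 µM and 6.66, 6.62, 6.86 and 6.99 at 10 µM. The 10 µM arrays lay inside the range of the 1 µM arrays, with a difference of -0.13 ± 0.22 (95% interval -0.60 to 0.34; adjusted p = 0.868). Without 1 µM replicates 1 and 4, the lower pair of that group, the difference was -0.49, with an interval of -0.97 to -0.003. For spsb4a, which encodes a SOCS box protein, the difference was -0.33 (95% interval -0.60 to -0.06), and also -0.33 without those arrays (95% interval -0.66 to 0.004). For ppm1h, a protein phosphatase gene, the difference was -0.50 (95% interval -1.02 to 0.01). The remaining lower genes differed by -0.21 (pgp), -0.19 (mpped2), -0.17 (fgfr3) and 0.03 (tmem160).

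Of the genes that rose under the antagonist, tbx1, a T-box gene of the pharyngeal arches, had a dose difference close to 0. It stood at 6.16, 6.59, 5.43 and 5.95 in DMSO, 7.22, 7.02, 7.24 and 7.50 at 1 µM and 7.44, 7.34, 7.33 and 6.99 at 10 µM. The doses overlapped, above all controls, and the difference was 0.03 ± 0.20 (95% interval -0.40 to 0.45; adjusted p = 0.975). RA brought tbx1 to between 3.12 and 3.70, under the floor.

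In tbx15 and zic6 the higher mean was at 1 µM. tbx15, another T-box gene, stood at 4.65, 4.77, 4.29 and 4.75 in DMSO, 6.19, 5.76, 5.84 and 6.08 at 1 µM and 5.74, 4.98, 5.98 and 5.28 at 10 µM. The doses overlapped above the controls, and the difference was -0.47 ± 0.22 (95% interval -0.94 to -0.01; adjusted p = 0.554). It was -0.31 without 1 µM replicates 1 and 4, with an interval of -0.89 to 0.28. tbx15 rose by 1.35 at 1 µM (adjusted p = 0.0157), and its difference at 10 µM was 0.88 (adjusted p = 0.154). For zic6, a zinc finger gene, the levels were 5.73, 5.75, 5.20 and 5.22 at 1 µM and 5.17, 5.06, 5.27 and 5.06 at 10 µM. The difference was -0.34 ± 0.13 (95% interval -0.62 to -0.05, adjusted p = 0.554). It was also -0.34 without those arrays, with an interval of -0.66 to -0.02. The other higher genes differed by 0.32 (hey2), 0.18 (tfap2b) and -0.20 (hapln1a), with intervals that included 0.

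The floor was also examined over all genes that RA called higher by 2-fold or more, 121 in number. At 1 µM, 19 of them were at the floor (145 of all 11843 probe sets tested). Of the 19, 15 were at the floor in DMSO and at 10 µM too (21 of all probe sets tested), so that an antagonist could not be seen to lower them. These 15 were tested only because of the 4 RA arrays, which also chose them. Among these 15 were hoxa5a, hoxc1a, hoxc4a, bmp5, dkk2 and wnt4. The other 4 were dhrs3a, si:dkey-117n7.5, ppp1r13ba and ppap2d. si:dkey-117n7.5 stood at 3.86, 5.11, 3.42 and 4.37 in DMSO, so that its controls straddled the floor, and at 3.17 to 3.50 at 1 µM and 3.36 to 3.45 at 10 µM. ppp1r13ba stood at 4.05 to 4.74 in DMSO, 3.78 to 3.93 at 1 µM and 3.87 to 4.14 at 10 µM, and the means of ppap2d were 4.06, 3.74 and 4.12, all close to the floor. The count of 19 depends on the limit: it was 3 with the floor at log2 3 and 37 with it at log2 5.

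Of the 106 genes left without those 15, 73 had the lower mean at 10 µM (median difference -0.12), 0 were called between the doses by limma, 14 were lower and 1 was higher at an unadjusted p under 0.05, and 96 had an interval inside 2-fold. Over all probe sets, as above, 4.72% were lower and 4.20% higher at that threshold and 93.9% had such an interval. The set includes most of the lower RA-dependent genes. Of the 133 genes that RA called lower by 2-fold or more, 68 had the lower mean at 10 µM (median -0.02), 0 were called by limma, 11 were lower and 4 higher at an unadjusted p under 0.05, and 0 were at the floor in either antagonist group. In none of the 21 gene lists was a gene called between the doses. Calls under the antagonist, which made up 0.296% lower and 0.110% higher of all probe sets, numbered 5 lower and 1 higher of 16 in the list for hox groups 1 to 5, 3 higher of 11 in that for the heart and pharyngeal field, and 2 lower and 1 higher of 12 in that for RA metabolism. The lists were chosen with earlier results known, and their counts carry no test.

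**Figure D4:**
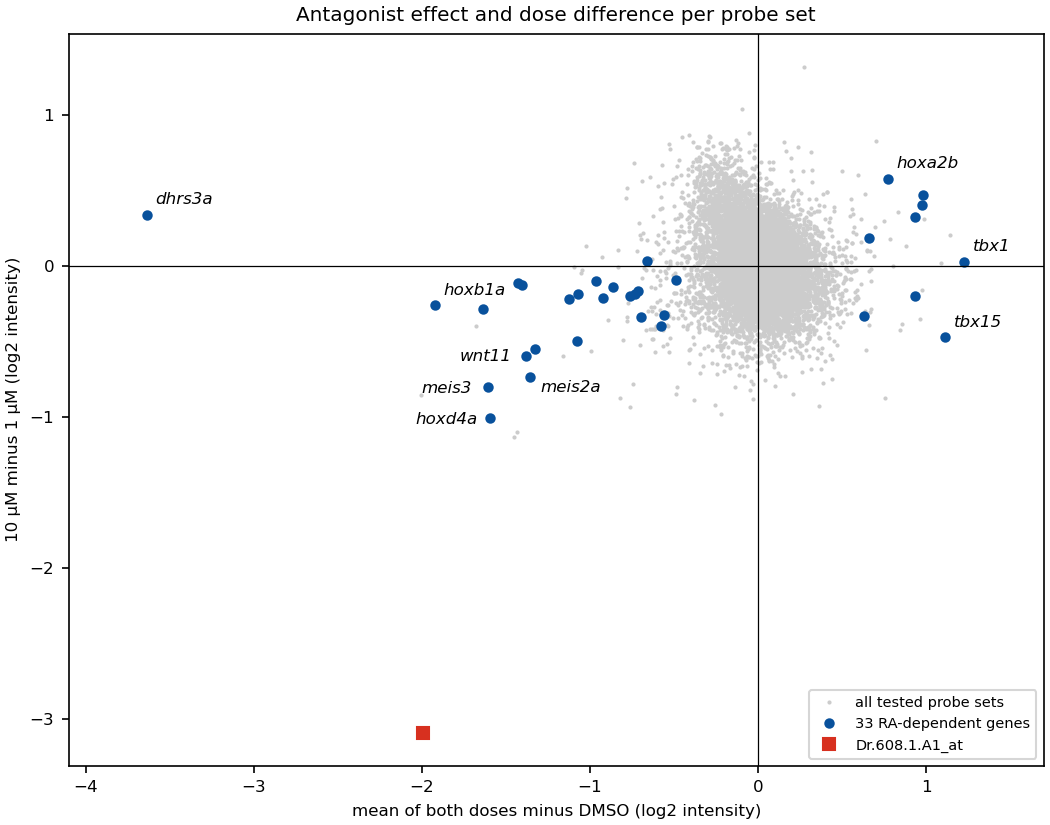
Difference between the doses against the mean difference of both doses from DMSO, both in log2 intensity, for all 11843 probe sets (grey), the 33 RA-dependent genes (blue) and Dr.608.1.A1_at (red square). dhrs3a lies farthest to the left of the RA-dependent genes with a dose difference of 0.34, and hoxd4a and meis3 lie lowest among them at -1.01 and -0.80.

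The single call between the doses was Dr.608.1.A1_at, a probe set that the annotation used here does not name. It stood at 7.03, 7.38, 7.33 and 6.53 in DMSO, 6.56, 6.73, 6.06 and 7.13 at 1 µM and 3.38, 3.93, 3.15 and 3.66 at 10 µM. The 1 µM arrays overlapped the controls, while all 10 µM arrays were under the floor. The doses differed by -3.09 ± 0.22 (95% interval -3.56 to -2.62; adjusted p = 1.88e-06), which as a bound against the floor is at least 6.15-fold. RA also took it under the floor, to 2.89, 2.91, 2.80 and 3.0, so that it did not move in opposite directions under RA and the antagonist. It was at least 8.39-fold lower than in DMSO both in RA and at 10 µM, and the difference at 1 µM was -0.45 (adjusted p = 0.745). Without 1 µM replicates 1 and 4 the dose difference was -2.87 (adjusted p = 0.000159).

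Dr.14662.1.S2_at, also unnamed, was next by adjusted p. It stood at 8.84, 8.86, 8.52 and 8.85 in DMSO, 8.23, 7.53, 7.49 and 8.27 at 1 µM, 6.99, 6.58, 6.73 and 6.68 at 10 µM and 11.05, 10.72, 11.03 and 10.55 in RA. The groups stepped down without overlap from RA to 10 µM. Between the doses it differed by -1.13 ± 0.18 (95% interval -1.52 to -0.74) with an adjusted p of 0.0717, and -0.77 without 1 µM replicates 1 and 4, whose values were the higher pair. Dr.14662.1.S1_at, whose ID shares the same stem, stood at 7.20, 6.91, 6.53 and 8.04 at 1 µM and 6.09, 6.05, 5.92 and 6.20 at 10 µM, a difference of -1.10 ± 0.30 (adjusted p = 0.542). Dr.74.1.S1_at differed between the doses by -0.40 (95% interval -0.78 to -0.02). Its DMSO level was 9.52 to 10.19, and it differed from DMSO by -1.88 at 10 µM and by -1.48 at 1 µM.

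**Figure D5:**
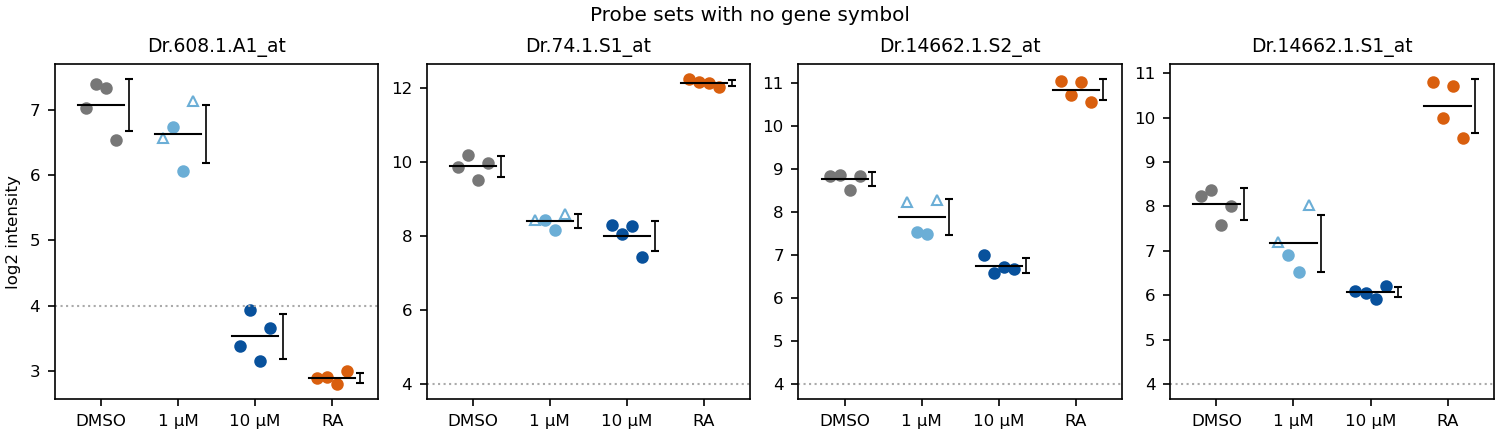
Log2 intensity of 4 probe sets without a gene symbol on each array, by group; each point is 1 array, open triangles are 1 µM replicates 1 and 4, bars are means, whiskers are 1 SD (n = 4), and the dotted line is the floor at log2 4. Dr.608.1.A1_at stays at 6.06 to 7.13 at 1 µM and lies under the floor at 10 µM and in RA.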

How the data were processed

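RNA of 16 samples was measured on Affymetrix zebrafish arrays. The deposited values are 1 linear intensity per probe set and array. Per the submitters' processing notes they were made with GCRMA, of no stated version, which corrects background, normalizes between arrays and summarises probes. Groups and replicate numbers come from the titles.

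Log2 of the deposited intensities was fitted in R 4.3.3 by limma 3.58.1 with lmFit and eBayes (4 group means over 16 arrays; 12 residual and 4.45 prior degrees of freedom; two-sided). Testing was limited to probe sets above log2 4 on at least 4 arrays and left out 115 controls, so that 11843 of 15617 were tested. The number of arrays limits the precision, and no scan dates or slides were used here. Symbols come from the platform annotation, updated by Entrez number against GRCz12tu: 10802 probe sets had 1 symbol, 135 several and 4680 none. Where a gene had several probe sets, the one with the highest mean stood for it.

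Members were genes called in the mean of both doses minus DMSO. Members and gene lists were chosen with earlier results of these data known. The named genes are the members, the largest dose differences without overlap, genes at the floor and a list of RA genes; only some are described. Alternatives changed the samples, normalization, filter, pseudocount, weights, prior, floor and replicates. The fit was tested on simulated data. Their noise was independent between arrays and equally spread in all groups, so the unequal spreads seen here were not covered.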

Additional observations from a re-analysis of the deposited data

Results flagged for a closer look

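Of 111 groups of 4 arrays, for 37 named features, 8 held an array far from the other 3 by Dixon's criterion, and chance alone gives about 5%. At 10 µM, wnt11 stood at 5.55 in replicate 2 with the nearest array at 6.18, and nrip1b at 5.90 in the same replicate with the nearest at 6.41. tshz1 stood at 6.93 in 10 µM replicate 4 with the nearest at 7.22, and hoxa2b at 6.78 in 10 µM replicate 3 with the nearest at 6.16. At 1 µM, pgp stood at 7.75 in replicate 3 with the nearest array at 7.34. In DMSO, spsb4a stood at 10.3 in replicate 3 with the nearest at 9.98, cyp26b1 at 8.67 in replicate 2 with the nearest at 8.30, and Dr.14662.1.S2_at at 8.52 in replicate 3 with the nearest at 8.84.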

How the results depend on the processing

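The dose comparison had 1 call. It had 2 with arrays centred on their medians. With 1 array left out it had between 1 and 3 (3 without 1 µM replicate 2, 2 without 1 µM replicate 3). Dr.14662.1.S2_at then passed, with limma adjusted p of 0.0432, 0.0393 and 0.0289 in that order. It passed in only 3 of 26 alternatives. Without both 1 µM replicates 1 and 4 its limma adjusted p was 0.9998. In that setting hoxd4a, meis3, wnt11, neurog1, hoxa2b, zic6 and cyp26a1 had the same adjusted p, including those whose interval left out 0. The exact permutation test of 4 against 4 arrays has a smallest p of 0.0286, reached only where the doses do not overlap. It gave 587 unadjusted p under 0.05 among 11843 probe sets. These are the probe sets without overlap given above (2.14% lower and 2.82% higher). It gave 0 calls, but a call was possible only if a large part of all probe sets reached that smallest p. Its 0 calls therefore decide nothing about the dose comparison. No member was called between the doses under any alternative; the lowest adjusted p was 0.136. The genes called lower under the antagonist numbered 24 and, with 1 array left out, 14 to 25. They numbered 18 with the 12 arrays without RA, 33 with array weights and 21 without both 1 µM replicates 1 and 4. The 9 called higher numbered 2 to 11 with 1 array left out, 4 with the 12 arrays without RA, 5 with the filter at log2 6, 24 with array weights and 2 without both 1 µM replicates 1 and 4. The 26 called in opposite directions under RA numbered 14 to 27 with 1 array left out (14 without DMSO replicate 1) and 49 with array weights. The calls of 14 of the 24 lower genes and of tbx1 alone among the higher held without any single array of DMSO or the antagonist. The 11 members with an interval that left out 0 became 6 without both 1 µM replicates 1 and 4, and the genes at the floor, 19, became 3 and 37 at log2 3 and 5.

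Of 992 dose differences of 37 named features, 15 changed sign. Without both 1 µM replicates 1 and 4 these were rxrga (0.11), tshz1 (0.0094), nr2f1a (0.27), hoxa3a (0.15), znf503 (0.029), tmem160 (-0.10) and znf703 (0.0073). With 1 array left out, tmem160 ranged from -0.052 to 0.11, tbx1 from -0.047 to 0.12, neurog1 from -0.33 to 0.029, rxrga from -0.25 to 0.0024 and nr2f1a from -0.45 to 0.0060. The labels do not say that same-numbered samples share a batch, so the numbers were not taken as pairs. Deviations of same-numbered samples of both doses correlated at 0.45, 0.25, 0.05 and -0.20. With the replicate number as a block, the dose comparison kept 1 call, 28 of the 33 members were called against DMSO, and hoxd4a had an adjusted p of 0.337. The cause of these changes was not tested.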

Other observations

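Outside the RA-dependent genes, other genes had dose differences without overlap between the arrays, none of them called. Over all probe sets 2.14% were lower and 2.82% higher at 10 µM without overlap. p4ha1b, a prolyl hydroxylase subunit of collagen synthesis, differed by -0.72 (adjusted p = 0.145), arhgef7a by -0.83 and kdm5ba, a histone demethylase gene, by -0.71, all lower at 10 µM. Means in DMSO, at 1 µM and at 10 µM were 10.98, 11.09 and 10.38 for p4ha1b. They were 7.88, 8.25 and 7.43 for arhgef7a and 10.20, 10.67 and 9.96 for kdm5ba. Replicate 1 of the 1 µM group was the highest 1 µM array for each. Their differences without 1 µM replicates 1 and 4 are not given. angptl4, which encodes an inhibitor of lipoprotein lipase, had a mean higher at 10 µM by 0.64 and was likewise not called. Its difference without 1 µM replicates 1 and 4 is not given either.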
